A study of Mus musculus with 8 samples.

Results

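The comparison is of 4 arrays among the 8 of the study: 2 of cells that had received control supernatant for 6 h against 2 of cells that had received it for 3 h. The arrays were chosen by their labels alone, and the change from 3 h to 6 h was then described across all genes measured. The cells were 3T3-L1, a mouse fibroblast line that forms fat-like cells in adipogenic medium, in which these had spent 1 week. The supernatant came from HL-60, a human promyelocytic leukemia line, carrying a mock vector, and it was put on the mouse cells after 2-fold dilution. The HL-60 cells had been cultured for 5 days in Opti medium with 30 nM of the phorbol ester PMA, which makes them macrophage-like, and the labels do not say that PMA was removed from the supernatant. The other 4 arrays had the same 2 times with supernatant of HL-60 cells whose USP2, which codes for an enzyme that strips ubiquitin from proteins, had been silenced (USP2 knockdown). No array of untreated cells was analysed here, so the change from 3 h to 6 h cannot be split into the fading of an early response and a later one of its own. All mouse cells were of 1 line, and the labels give 10% fetal calf serum (FCS) in culture for all 8 arrays. The labels call the 2 arrays of a group biological replicates without saying what was separate, so a p-value covers the spread between these arrays, which may be technical.

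Macrophages secrete cytokines, growth factors and proteases, and fat cells and their precursors answer such mixtures in waves. Immediate early genes, whose transcription needs no new protein, rise first, together with the genes of feedback inhibitors that later shut the signalling off. Their RNAs are short-lived, so their levels fall within hours, while genes that depend on newly made factors follow. Growth factors also raise the machinery of ribosome assembly through Myc, and cytokines of macrophages can hold back the fat cell programme run by Pparg and Cebpa.

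Each array held 59305 non-control spots, of which 50.7% to 55.4% were well above background on these 4 arrays. Across the genes tested, the 2 arrays at 3 h correlated at 0.998 and the 2 at 6 h at 0.989, and the SD of the difference between replicates was 0.22 and 0.49 on the log2 scale. Patches of neighbouring spots that were all too bright covered 0.076% and 0.354% of the spots at 3 h, and 2.62% and 5.88% at 6 h. The 3 h arrays lay in row 1 of the slide and the 6 h arrays in row 2, so time and slide row cannot be told apart. The labels call the cells adipocytes. Of 25 adipocyte markers, 9 were well above background on none of the 4 arrays, among them Adipoq and Cfd, which encode secreted products of mature fat cells, the fatty acid transporter gene Cd36 and Cidec of the lipid droplet. Pparg, the master factor of fat cell formation, gave log2 signals of 2.14 and 2.13 at 3 h and 2.03 and 2.06 at 6 h, here and throughout as log2 of the signal over the 75th percentile of its array. The fatty acid carrier gene Fabp4 gave 5.25 and 5.16 at 3 h and 5.04 and 5.01 at 6 h, so both genes lay in the brightest 25% of spots at both times. Of 16 preadipocyte and fibroblast markers, Sfrp1 alone was well above background on none.

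From 3 h to 6 h most measured genes of ERK feedback, ribosome assembly, mitosis and the circadian clock fell, and Chac1, Neat1 and Nos2 rose. Regulators of fat cell formation moved in both directions, with 13 of 28 higher and 9 lower. Of 24710 genes and unnamed probes tested, 10335 passed (41.8%; limma with Benjamini-Hochberg adjustment, adjusted p under 0.05), 4189 higher at 6 h (17.0%) and 6146 lower (24.9%). A change of at least 2-fold was seen in 1223 of those higher (4.95% of all tested) and in 1294 of those lower (5.24%). Of the 13497 with a gene name 6664 passed (49.4%), 2709 as higher (20.1%) and 3955 as lower (29.3%). On each of the 10335 calls the arrays at 6 h lay apart from those at 3 h, as they did on 16916 of all 24710. An array whose spot was left out as an outlier was not counted there. Of the dimmest 25% of genes and probes 32.3% passed, of the next 43.1%, of the third 53.8% and of the brightest 38.1%. The direction of the calls also depended on level. In the same order, the higher calls numbered 977, 1361, 1352 and 499. The lower calls numbered 1021, 1303, 1970 and 1852. The shares of all genes set beside the lists below do not allow for signal level. Whether a list of bright genes with few or 0 higher calls differs from other bright genes was not tested.

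How the calls split into higher and lower depended on how the arrays were scaled. Of the calls, 40.5% were higher with the 75th percentile of each array set equal, 21.2% with its median set equal, 49.6% with no scaling and 76.0% when 7 control transcripts added during labelling (spike-ins) were set equal. The median change over all tested was -0.075, -0.28, -0.012 and 0.24 on these scales. The spike-ins themselves stood lower at 6 h by a median of 0.37 (log2 change -0.37, from -0.42 to -0.086). These 4 scalings each add 1 constant to every change, so the order of genes, and the distance of a gene group from the median of all genes, are the same under each. They also move replicate arrays against each other, which alters the SE. A call lost under a scaling can therefore come from the constant, from the SE or from both. A direction given below was found with the 75th percentile, and group medians are given with the scalings under which their sign changes. With the spike-ins 4661 of the 24710 passed as higher (18.9%) and 1471 as lower (5.95%). The spike-in counts of each group stand against these shares. Without scaling, 12.1% of the 24710 passed as lower. They held 11 of 19 tested genes of ERK feedback and 22 of 47 of the Myc network and ribosome assembly. They also held 17 of 35 of mitosis and 8 of 22 of the clock. With the spike-ins these counts were 9, 15, 4 and 7.

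**Figure D1:**
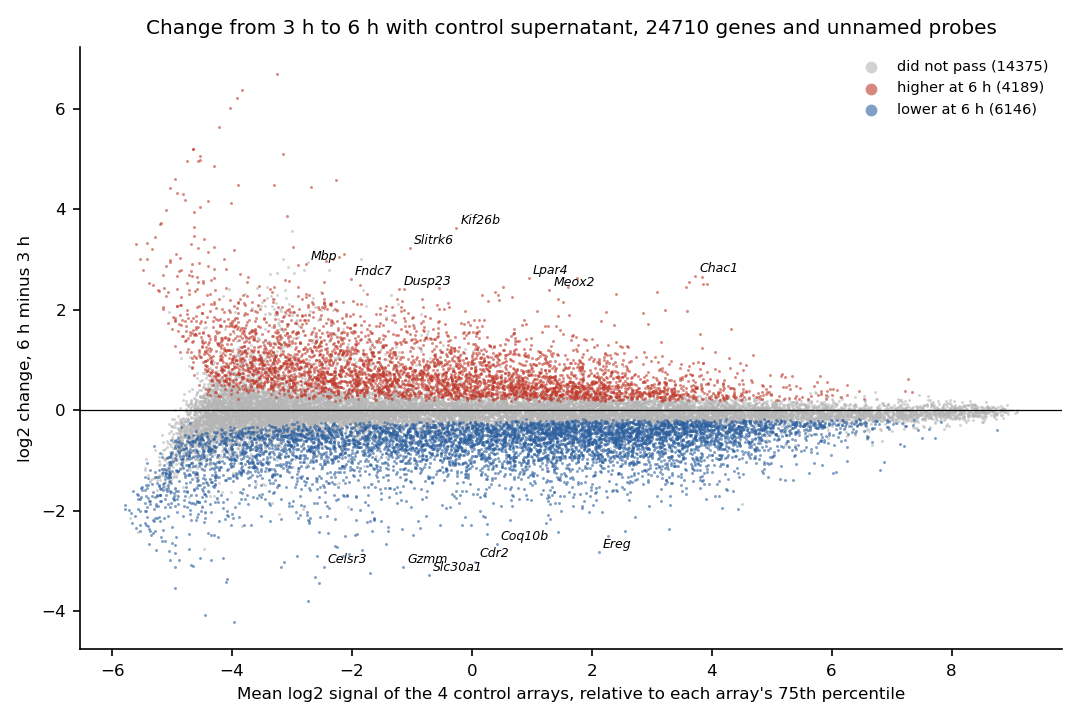
Change from 3 h to 6 h (log2, vertical axis) against the mean log2 signal of the 4 control supernatant arrays (horizontal axis) for 24710 genes and unnamed probes. Red points passed as higher at 6 h (4189), blue as lower (6146) and grey did not pass, and the changes past 4 at the dim end include the genes with spots in bright patches.

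The largest rise in a gene measured on all 4 arrays was that of Kif26b, which encodes a kinesin-family protein that does not act as a motor. Its signal was -2.02 and -2.12 at 3 h and 1.51 and 1.59 at 6 h. The change was 3.62 ± 0.082 (limma adjusted p = 5.76e-05), or 12.3-fold. Here and below ± gives the SE for 2 control arrays per time, with the spread estimated from all 8 arrays. The 2 control arrays at 6 h differed most, with an SD of 0.49 against 0.21 to 0.35 in the other groups. Slitrk6, a gene of a membrane protein of neurite growth, followed with 3.23 ± 0.086, and the myelin basic protein gene Mbp with 2.90 ± 0.13. Chac1 encodes an enzyme that breaks down glutathione and is a late target of the stress factor ATF4, and its signal was 2.35 and 2.43 at 3 h and 5.06 and 5.06 at 6 h. It rose by 2.67 ± 0.071 (adjusted p = 5.76e-05). The nuclear long noncoding RNA Neat1, the scaffold of paraspeckles, was at 2.57 and 2.46 at 3 h and 5.22 and 5.11 at 6 h and rose by 2.66 ± 0.078. Both stood more than 5 log2 units above the 75th percentile on each array at 6 h. Lpar4, a receptor for lysophosphatidic acid, rose by 2.62 ± 0.11, the homeobox gene Meox2 by 2.39 ± 0.063 and Map2k6, a kinase that activates p38, by 2.36 ± 0.10. Rises of 2.60 ± 0.13 for Fndc7, 2.56 ± 0.067 for Acad12, 2.46 ± 0.058 for Rpusd3 and 2.40 ± 0.12 for Dusp23 complete the 12 largest.

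The largest fall in a gene measured on all 4 arrays was that of Slc30a1, which encodes the zinc exporter ZnT1 of the cell membrane. Its signal was 0.92 and 0.93 at 3 h and -2.34 and -2.37 at 6 h, a change of -3.28 ± 0.067 (adjusted p = 5.76e-05), so that 9.69 times less was measured at 6 h. Gzmm, a granzyme gene, fell by 3.12 ± 0.063 and the cadherin gene Celsr3 by 3.12 ± 0.17. Cdr2, a gene known as an antigen in cerebellar degeneration, fell by 3.01 ± 0.13, and Coq10b, which serves coenzyme Q in the mitochondrion, by 2.65 ± 0.12. Ereg, the gene of the EGF receptor ligand epiregulin, was at 3.56 and 3.47 at 3 h and 0.71 and 0.70 at 6 h and fell by 2.81 ± 0.070. The other falls among the 12 were 2.90 ± 0.53 for Ppfia4, 2.89 ± 0.15 for A3galt2, 2.86 ± 0.081 for Amigo3, 2.72 ± 0.12 for Elavl3, 2.70 ± 0.22 for Zbtb32 and 2.78 ± 0.73 for Mapk8, the kinase JNK1. Mapk8 had 3 probes, of which 2 passed as lower and 1 did not pass, and its call was lost in 6 of 24 alternatives, among them each that left out 1 control array.

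Growth factors signal through the kinase ERK, which also turns on the genes of its own inhibitors. These feedback genes had the lowest median of the 36 lists. Of 19 tested members of the list of ERK feedback inhibitors and EGF receptor ligands, 13 passed as lower and 3 as higher, 9 and 3 with the spike-ins, and their median change was -0.89, below 0 under all 4 scalings. Hbegf, which encodes a second EGF receptor ligand, was at 2.44 and 2.32 at 3 h and 0.47 and 0.60 at 6 h and fell by 1.85 ± 0.078 (adjusted p = 7.95e-05). Errfi1, an inhibitor that binds the EGF receptor itself, fell by 1.60 ± 0.058 from 5.15. Against these, the ERK pathway inhibitor gene Spry1 rose by 1.20 ± 0.098, and the ETS factors Etv1 and Etv4 by 0.86 ± 0.067 and 0.49 ± 0.077, the latter not with array medians or without scaling. The phosphatase gene Dusp1, which shuts off MAP kinases and is counted here with the glucocorticoid response, fell by 1.02 ± 0.12. For 14 of the 19 the change lay in the lowest 25% of all changes, and for 4 in the highest 25%, shares that no scaling alters.

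Among 36 immediate early genes, 20 passed as lower and 6 as higher (12 and 7 with the spike-ins), with a median change of -0.48, below 0 under all 4 scalings. Egr2, a zinc finger factor, was at 0.52 and 0.55 at 3 h and -1.46 and -1.36 at 6 h and fell by 1.94 ± 0.093, and the AP-1 subunit gene Fosl1, at 2.71 and 2.90 at 3 h and 0.84 and 0.89 at 6 h, fell by 1.94 ± 0.086 (adjusted p = 8.46e-05). Srf, the gene of the factor that drives many of these genes, fell by 1.61 ± 0.057. Egr1 fell by 0.76 ± 0.081, and this call was lost with the spike-ins (adjusted p = 0.143). Fos was low at both times, at -2.74 and -2.73 at 3 h and -3.12 and -2.97 at 6 h, and its change of -0.31 ± 0.079 turned to 0.0071 with the spike-ins and was lost in 7 other alternatives. Myc did not pass, at 1.44 and 1.50 at 3 h and 1.47 and 1.46 at 6 h (change -0.0055 ± 0.079, adjusted p = 0.965). In the other direction, Klf2, a factor of quiescent cells, was at 1.27 and 1.26 at 3 h and 3.10 and 2.96 at 6 h and rose by 1.77 ± 0.074, while the matricellular genes Ccn1 and Ccn2 rose by 0.57 ± 0.074 and 0.67 ± 0.085. Of the genes answering the serum response factor in the cytoskeleton, 2 of 25 passed as higher and 6 as lower, with a median of -0.042 (-0.24 to 0.27 over the scalings). The smooth muscle actin gene Actg2 fell by 0.48 ± 0.090, a call lost without scaling and with the spike-ins.

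Myc is known to drive the genes of ribosome assembly. While Myc itself did not pass, 31 of 47 tested genes of its network and of ribosome assembly passed as lower and 0 as higher, 15 and 0 with the spike-ins. Their median change was -0.61, below 0 under all 4 scalings, and 14 of them fell by at least 2-fold. Tsr1, needed to mature the small ribosomal subunit, was at 3.51 and 3.52 at 3 h and 0.87 and 1.15 at 6 h and fell by 2.50 ± 0.10 (adjusted p = 7.95e-05). The RNA helicase gene Ddx21 of the nucleolus was at 2.63 and 2.66 at 3 h and 0.70 and 0.78 at 6 h, and Rrs1, an assembly factor of the large subunit, at 2.77 and 2.77 at 3 h and 0.87 and 1.05 at 6 h. Their arrays at 6 h were all below those at 3 h, with falls of 1.90 ± 0.083 and 1.81 ± 0.083. Of 51 genes of the finished cytosolic ribosome 0 passed as lower and 0 as higher (limma; 3 at an unadjusted p under 0.05), with a median change of -0.062 that became 0.00061 without scaling and 0.25 with the spike-ins. With array medians 29 of these 51 passed as lower, where the median change of all 51 was -0.26 and that of all genes and probes -0.28. Of 23 aminoacyl-tRNA synthetase genes, which charge tRNAs for translation, 12 passed as lower and 0 as higher, with a median of -0.25 that turned to 0.067 with the spike-ins, where 0 passed. Aars, for alanine, fell by 0.50 ± 0.068 and Rars, for arginine, by 0.67 ± 0.098, neither without scaling nor with the spike-ins.

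Genes of mitosis and of the G2 phase had the largest share of lower calls among the 36 lists, 31 of 35 tested members, with 0 higher and 30 in the lowest 25% of all changes. Their median change was -0.67, below 0 under all 4 scalings, and 4 passed as lower with the spike-ins. Ccnb1, which encodes cyclin B1, the partner of the kinase that starts mitosis, was at 2.49 and 2.51 at 3 h and 1.35 and 1.36 at 6 h and fell by 1.14 ± 0.090 (adjusted p = 0.000319), with each of its 3 probes passing as lower. Kif23, a kinesin of the central spindle, was at 0.24 and 0.090 at 3 h and -0.78 and -0.69 at 6 h, and Prc1, which bundles the microtubules there, at 2.24 and 2.28 at 3 h and 1.47 and 1.48 at 6 h. They fell by 0.90 ± 0.076 and 0.78 ± 0.061, calls that were lost with the spike-ins (adjusted p = 0.0596 and 0.130). Of the replication genes 12 of 37 passed as lower (32.4%) and 6 as higher (16.2%), near the shares of all named genes (29.3% and 20.1%), with a median of -0.0010 (-0.20 to 0.31 over the scalings). Fen1, which trims the fragments of the lagging strand, and Orc6, of the complex that marks origins, fell by 0.91 ± 0.084 and 0.77 ± 0.065, not with the spike-ins, and Pole, a replicative polymerase, rose by 0.50 ± 0.063. E2f8, a repressor of the cell cycle, fell by 1.01 ± 0.092, whereas its activating relatives E2f1 and E2f2 rose by 0.57 ± 0.095 and 0.73 ± 0.076. Of the p53 targets and cell cycle brakes, 8 of 27 passed as higher (29.6%) and 7 as lower (25.9%), also near the shares of all named genes. Their median of 0.090 turned to -0.11 with array medians. The brake gene Cdkn1b, which encodes p27, rose by 0.89 ± 0.078 and the apoptosis gene Bbc3 by 1.06 ± 0.10, while the stress kinase gene Plk3 and the antiproliferative gene Tob2 fell by 1.68 ± 0.067 and 1.18 ± 0.085. Cdkn2b, which encodes the inhibitor p15, rose by 0.65 ± 0.069, with a spot in a bright patch on 1 array, and cyclin D1, Ccnd1, did not pass (adjusted p = 0.210). In bulk RNA, fewer dividing cells and less RNA per dividing cell cannot be told apart.

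The promoters of many of these mitotic genes share a sequence feature, which is a trait of the list and not of the changes measured here. In the 250 bases before the start of transcription (RefSeq, GRCm38.p6), 24 of the 29 members with a promoter sequence held CCAAT on either strand (82.8%), against 40.5% of 10735 tested genes with a promoter and 33.8% of all 32851 promoters in the table. TTTGAA, the letters of the CHR element of mitotic genes, stood in 11 of the 29 (37.9%), against 13.1% of tested genes. Of the 26 that passed as lower, 21 held CCAAT and 11 held TTTGAA, so CCAAT was no commoner among them than in the list. These shares are a description, and no match was tested as a site. The upstream sequences of the 3 named members are shown because the genes fell together, with CCAAT or its reverse complement in capitals. For Ccnb1 it is chr13:100786487-100786736, minus strand, for Kif23 chr9:61946800-61947049, minus strand and for Prc1, whose first of 2 listed starts is shown, chr7:80294201-80294450, plus strand.
Ccnb1: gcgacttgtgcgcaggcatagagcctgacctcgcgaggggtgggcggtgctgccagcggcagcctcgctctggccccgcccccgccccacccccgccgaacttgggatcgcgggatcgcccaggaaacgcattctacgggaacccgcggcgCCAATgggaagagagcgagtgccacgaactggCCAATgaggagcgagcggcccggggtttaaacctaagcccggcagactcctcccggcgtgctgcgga
Kif23: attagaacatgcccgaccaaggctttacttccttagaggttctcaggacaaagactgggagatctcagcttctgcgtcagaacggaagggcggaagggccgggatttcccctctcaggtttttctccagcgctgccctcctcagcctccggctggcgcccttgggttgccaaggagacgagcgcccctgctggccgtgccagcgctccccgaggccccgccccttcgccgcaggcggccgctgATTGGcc
Prc1: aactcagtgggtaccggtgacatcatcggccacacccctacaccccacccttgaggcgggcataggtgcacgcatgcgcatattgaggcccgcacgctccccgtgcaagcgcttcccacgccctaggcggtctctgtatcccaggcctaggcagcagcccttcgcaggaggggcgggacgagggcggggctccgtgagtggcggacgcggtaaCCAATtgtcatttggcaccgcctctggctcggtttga

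**Figure D2:**
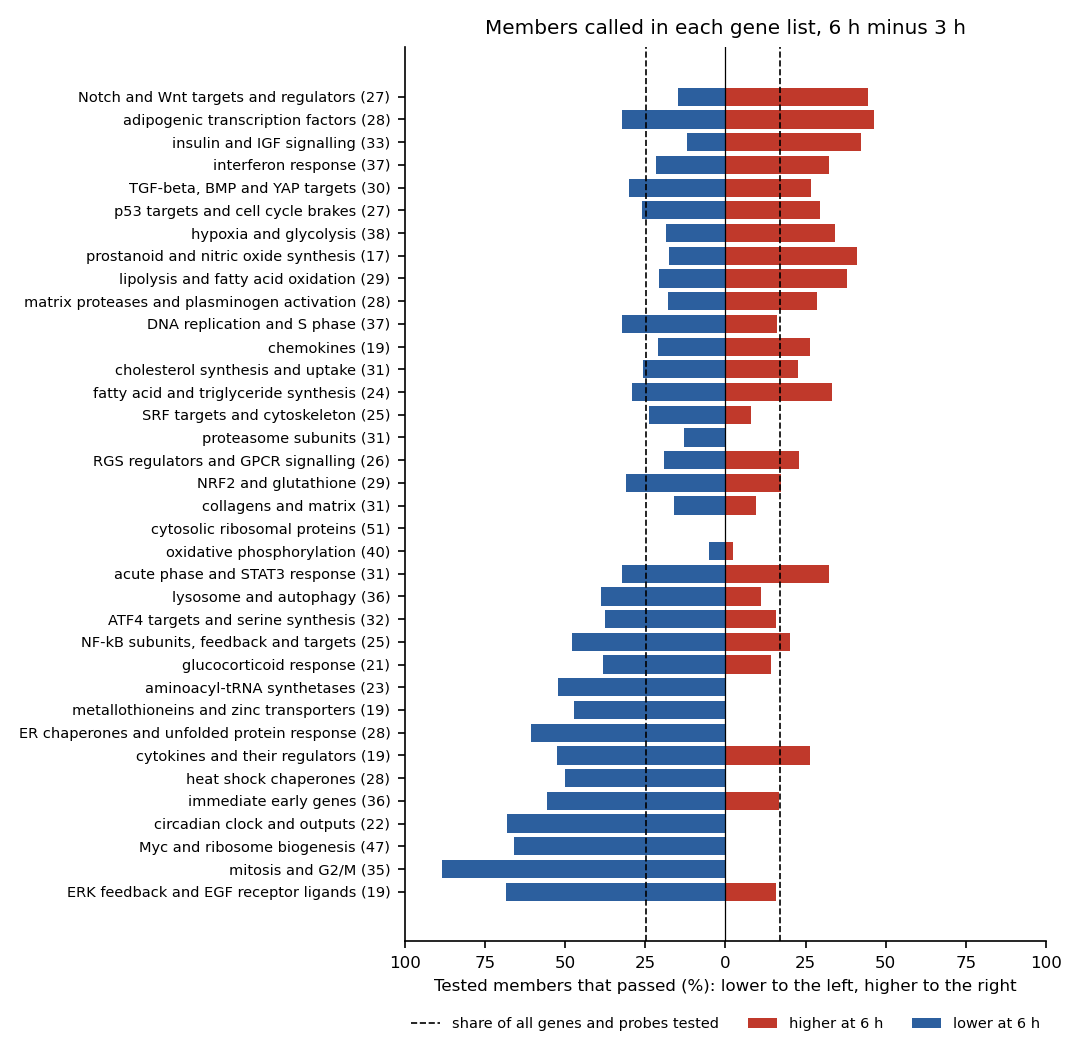
Share of the tested members of each list (percent, number tested in brackets) that passed as higher (red, right) or lower (blue, left) at 6 h, lists ordered by median change. The dashed lines give the shares among all genes and probes tested, 17.0% higher and 24.9% lower with the 75th percentile scaling, and mitosis genes reach furthest to the left with 31 of 35. In 9 of the 36 lists both shares lay within 10 percentage points of those of all named genes (20.1% higher and 29.3% lower): chemokines, TGF-beta, glucocorticoid response, cholesterol, NRF2, ATF4, replication, p53 and lysosome.

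The circadian clock turns on transcription factors that bind E-boxes and on the Per and Cry proteins that inhibit them. Of 22 tested clock genes and outputs, 15 passed as lower and 0 as higher (7 and 0 with the spike-ins), with a median change of -0.51, below 0 under all 4 scalings. Cry1 was at -1.87 and -1.98 at 3 h and -3.97 and -3.92 at 6 h and fell by 2.01 ± 0.11 (adjusted p = 0.000119), and Per2, at -1.71 and -1.74 at 3 h and -3.21 and -3.06 at 6 h, fell by 1.41 ± 0.079. Nr1d1, the nuclear receptor REV-ERB alpha that represses Bmal1, was at -0.79 and -0.62 at 3 h and -2.12 and -2.06 at 6 h and fell by 1.38 ± 0.086. Per1 and the output factor Dbp fell by less, 0.32 ± 0.098 and 0.41 ± 0.075, and these calls were lost in 14 and 3 of 24 alternatives (largest adjusted p = 0.990 and 0.745). Mouse Usp2, itself a clock output, was at -2.86 and -2.73 at 3 h and -3.17 and -3.03 at 6 h and did not pass (adjusted p = 0.0611), and it does not report on the human gene of the supernatant donors. The E-box CACGTG stood upstream of 5 of 17 clock genes with a promoter sequence (29.4%), against 9.59% of tested genes. In the list of the Myc network and ribosome assembly it stood upstream of 5 of 40 (12.5%). The upstream sequence of Cry1 (chr10:85185055-85185304, minus strand) is shown because its fall was the largest of the clock genes named here, with its E-box in capitals.
Cry1: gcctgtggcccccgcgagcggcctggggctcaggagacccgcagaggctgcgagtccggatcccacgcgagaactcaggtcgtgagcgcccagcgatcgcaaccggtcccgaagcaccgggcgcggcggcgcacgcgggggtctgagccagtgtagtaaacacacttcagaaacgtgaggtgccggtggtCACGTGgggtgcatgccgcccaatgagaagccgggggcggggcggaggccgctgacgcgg

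Metallothioneins bind zinc, the ZnT exporters of the Slc30 family remove it from the cytosol, and the Slc39 family brings it in. The metal sensor MTF1 turns on metallothionein genes and Slc30a1 when zinc is plentiful. Of 19 tested genes of this system 9 passed as lower and 0 as higher (4 and 2 with the spike-ins), and the median of -0.27 turned to 0.049 with the spike-ins. Mtf1 fell with Slc30a1: its signal was 0.92 and 0.92 at 3 h and -0.76 and -0.73 at 6 h, a change of -1.67 ± 0.064 (adjusted p = 7.44e-05), with 1 of its 2 probes passing. The importer gene Slc39a14 fell by 1.57 ± 0.082. The metallothionein genes Mt1 and Mt2 did not pass, at 8.70 and 8.56 at 3 h and 8.80 and 8.58 at 6 h for Mt1 and 8.64 and 8.54 at 3 h and 8.75 and 8.51 at 6 h for Mt2. They were among the brightest genes at both times and their arrays overlapped. An MRE core, TGCGCNC or TGCACNC on either strand, stood upstream of 7 of 16 genes of the system (43.8%) against 32.6% of tested genes. It was found upstream of Mt1, Mt2 and Slc30a1 alike, and the sequence of Slc30a1 (chr1:191906531-191906780, plus strand) is shown for the largest fall, with the reverse complement of the core in capitals.
Slc30a1: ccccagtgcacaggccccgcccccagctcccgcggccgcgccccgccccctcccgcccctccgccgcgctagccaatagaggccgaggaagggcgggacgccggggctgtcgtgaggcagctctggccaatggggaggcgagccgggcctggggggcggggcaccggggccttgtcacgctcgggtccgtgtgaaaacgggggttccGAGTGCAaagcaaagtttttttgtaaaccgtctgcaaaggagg

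The unfolded protein response of the endoplasmic reticulum (ER) raises chaperones through XBP1 and ATF6, and the kinase PERK, encoded by Eif2ak3, acts on translation and on ATF4. Of 28 tested ER genes 17 passed as lower and 0 as higher, with a median of -0.28, against 3 lower and a median of 0.033 with the spike-ins. Eif2ak3 was at 2.18 and 2.15 at 3 h and 0.80 and 0.76 at 6 h and fell by 1.39 ± 0.067 (adjusted p = 9.43e-05). Manf, a secreted ER stress factor, and Syvn1, a ligase of ER-associated degradation, fell by 0.76 ± 0.058 and 0.73 ± 0.062, calls that were lost with the spike-ins. The ER stress element is CCAAT and CCACG with 9 bases between them. It stood upstream of 8 of 24 ER genes (33.3%) and of 0.168% of tested genes. This share, like those of the E-box and the MRE core, is a trait of the list and not of the changes measured here. Of the 14 with a promoter sequence that passed as lower, 5 held the element. Syvn1 (chr19:6046326-6046575, plus strand) is shown with it in capitals as a named member that holds it. CCAAT, searched for the mitotic genes, is part of this element.
Syvn1: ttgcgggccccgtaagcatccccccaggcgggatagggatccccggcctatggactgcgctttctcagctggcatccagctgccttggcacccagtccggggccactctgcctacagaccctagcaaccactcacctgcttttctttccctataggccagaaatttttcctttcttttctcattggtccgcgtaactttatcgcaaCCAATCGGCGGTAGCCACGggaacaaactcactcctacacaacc

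ATF4, the factor of the integrated stress response, drives amino acid transport and synthesis and, with its target CHOP, genes of prolonged stress. Of its list 12 of 32 passed as lower (37.5%) and 5 as higher (15.6%), near the shares of all named genes (29.3% and 20.1%). The median of -0.13 became 0.19 with the spike-ins. Chac1, described above, was joined by Fgf21, the gene of a metabolic hormone, at -1.59 and -1.81 at 3 h and 0.14 and -0.0059 at 6 h, with a rise of 1.77 ± 0.095, and by Ddit3, which encodes CHOP, with 0.99 ± 0.072. Trib3, the pseudokinase target of CHOP, rose by 1.10 ± 0.092. On the other side stood Slc7a1, a transporter of cationic amino acids, which fell by 1.57 ± 0.076 from 5.03, and the glutamine transporter gene Slc1a5 and the one-carbon enzyme gene Mthfd2, with changes of -0.94 ± 0.10 and -0.65 ± 0.062, not called with the spike-ins. Heat shock chaperone genes fell in 14 of 28 tested and rose in 0 (median -0.33), but 1 passed as lower with the spike-ins, where the median was -0.013. Bag3, a co-chaperone, was at 4.21 and 4.26 at 3 h and 2.83 and 2.68 at 6 h and fell by 1.48 ± 0.079. Dnajb1 and Dnajb4, partners of HSP70, fell by 0.88 ± 0.062 and 0.73 ± 0.065, not with the spike-ins. Of the NRF2 and glutathione genes 9 of 29 passed as lower (31.0%) and 5 as higher (17.2%), again near the shares of all named genes. Their median of -0.057 turned to 0.0053 without scaling and 0.26 with the spike-ins. Txnrd1, thioredoxin reductase, fell by 1.66 ± 0.083, the oxidative stress gene Osgin1 by 1.45 ± 0.060 and Hmox1, heme oxygenase, by 1.22 ± 0.078, while Mgst1, Nqo1 and G6pdx rose by 0.47 ± 0.067, 0.51 ± 0.069 and 0.52 ± 0.068, the last pair not without scaling (adjusted p = 0.0538 and 0.0525). Of the hypoxia and glycolysis genes 13 of 38 passed as higher and 7 as lower, and the median of 0.075 turned to -0.13 with array medians. Txnip, an inhibitor of glucose uptake, was at 3.47 and 3.54 at 3 h and 5.15 and 5.10 at 6 h and rose by 1.62 ± 0.074, and Ndrg1 and Eno2 rose by 1.29 ± 0.070 and 1.07 ± 0.083. Hk2, the hexokinase of insulin-sensitive tissue, fell by 1.25 ± 0.13. Arrdc4, a relative of Txnip, fell by 1.47 ± 0.076 on the probe that represents it, while its other probe passed as higher, so its direction is uncertain. Few oxidative phosphorylation and proteasome genes passed, 1 higher and 2 lower of 40 and 0 higher and 4 lower of 31, with medians of -0.075 and -0.050 (0.24 and 0.27 with the spike-ins, and 0.013 for the proteasome without scaling).

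**Figure D3:**
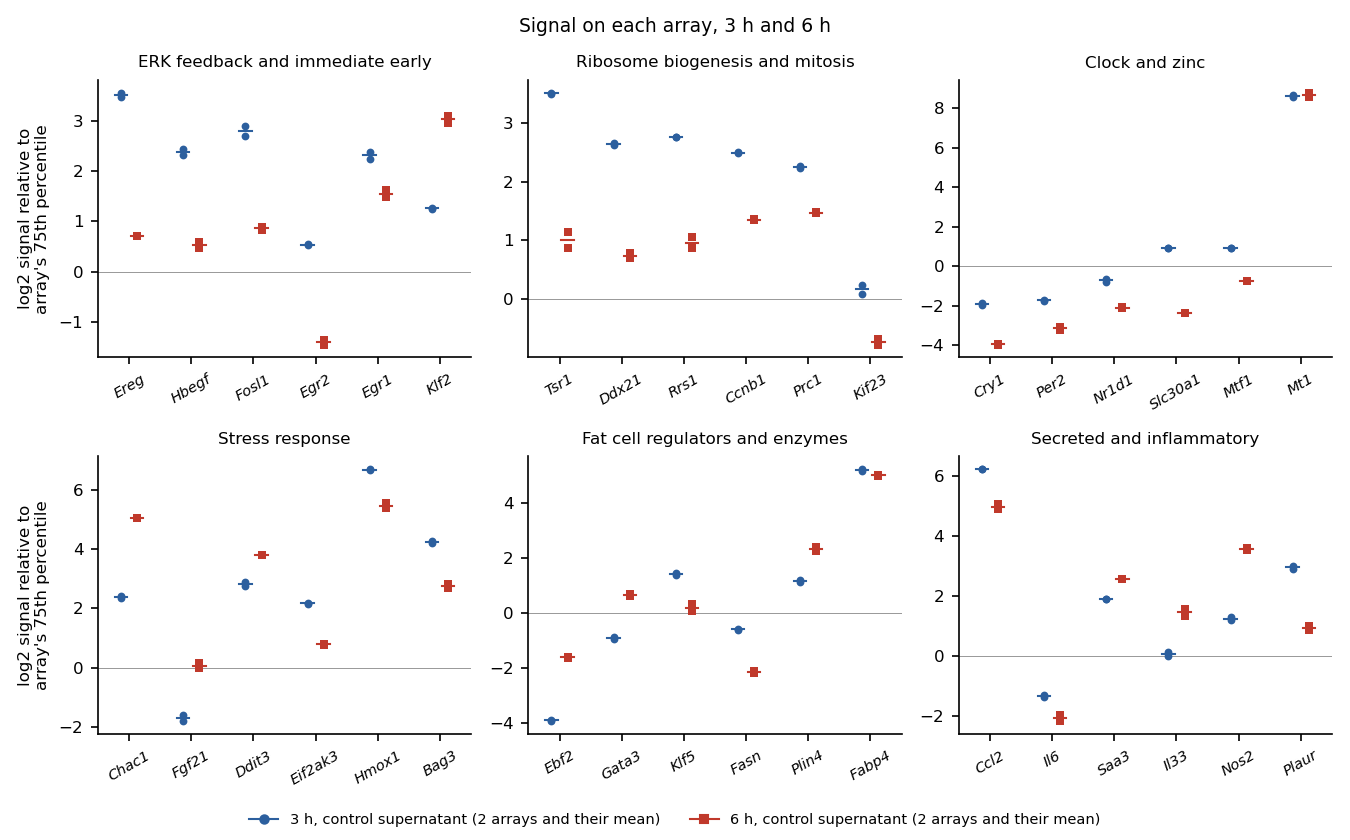
Log2 signal relative to the array's 75th percentile (vertical axis) of 36 genes on the 2 control supernatant arrays at 3 h (blue circles) and the 2 at 6 h (red squares), with short lines at the group means. The 2 arrays of a time lie close together beside the distance between times, except for Mt1, whose arrays overlap, and for Fabp4, whose groups lie 0.19 apart.

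Ccl2, a chemokine that attracts monocytes, was at 6.24 and 6.24 at 3 h and 4.91 and 5.07 at 6 h and fell by 1.25 ± 0.087. Its relative Ccl7 fell by 0.94 ± 0.061, and Cxcl1, which attracts neutrophils, by 0.41 ± 0.081, a call lost in 4 alternatives, no scaling and the spike-ins among them. Cxcl12, a chemokine of stromal cells, and Cx3cl1, which is made in a membrane-bound form, rose by 0.89 ± 0.068 and 0.51 ± 0.075, and Ccl11, which attracts eosinophils, by 1.07 ± 0.19. In all, 5 of 19 tested chemokine genes passed as higher (26.3%) and 4 as lower (21.1%), near the shares of all named genes (20.1% and 29.3%), with a median of -0.0057 (-0.21 to 0.31 over the scalings). Of 19 cytokine genes and regulators 10 passed as lower and 5 as higher, and the median of -0.30 turned to 0.015 with the spike-ins. The TNF receptor gene Tnfrsf1b was at 0.99 and 0.90 at 3 h and -0.96 and -1.39 at 6 h and fell by 2.12 ± 0.15, and Tnfrsf12a, the receptor of TWEAK, and the macrophage growth factor gene Csf1 fell by 1.25 ± 0.068 and 1.04 ± 0.066, the latter with 1 of 3 probes passing. Il33, the gene of an alarmin kept in the nucleus, was at 0.013 and 0.12 at 3 h and 1.34 and 1.56 at 6 h and rose by 1.38 ± 0.093, with rises of 0.89 ± 0.073 for Il18 and 0.74 ± 0.069 for Ctf1. Il6 was at -1.31 and -1.36 at 3 h and -1.99 and -2.18 at 6 h and fell by 0.74 ± 0.089, a call lost with the spike-ins (adjusted p = 0.148). NF-kB genes passed as lower in 12 of 25 and as higher in 5, but with the spike-ins in 0 and 5, and their median of -0.20 turned to 0.12. Nfkbia, the inhibitor of NF-kB, fell by 0.45 ± 0.064, not without scaling or with the spike-ins, and Tnfaip3, which encodes the inhibitor A20, rose by 0.34 ± 0.066, a call lost in 4 alternatives, array medians and no scaling among them. Zc3h12a, an RNase that degrades inflammatory messages, and Tnfaip2 fell by 0.65 ± 0.057 and 0.94 ± 0.073, not with the spike-ins. Map3k8, a kinase of the pathway, and Traf1, an adaptor, rose by 0.82 ± 0.087 and 0.67 ± 0.12.

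Acute phase genes and the STAT3 response were even, with 10 higher and 10 lower of 31 and a median of -0.081 (0.23 with the spike-ins). Il4ra, a receptor chain for interleukin 4, fell by 2.21 ± 0.11, with 1 of its 2 probes passing and no call on their mean (adjusted p = 0.158), and Hpx, hemopexin, by 1.00 ± 0.097. The gene of the serum amyloid Saa3 was at 1.90 and 1.90 at 3 h and 2.57 and 2.57 at 6 h and rose by 0.66 ± 0.061, and Lifr, the receptor of leukemia inhibitory factor, and the metalloreductase gene Steap4 rose by 0.96 ± 0.065 and 0.92 ± 0.093. Stat3 itself fell by 0.83 ± 0.086 on both its probes and Socs3, the inhibitor it induces, by 0.37 ± 0.081, neither with the spike-ins, and the call of Socs3 was lost in 4 other alternatives (no filter, no scaling, quantile normalization and without the first control array at 3 h). Lcn2 and Serpinb2, genes of lipocalin 2 and of an inhibitor of plasminogen activators, did not pass (adjusted p = 0.176 and 0.127). Among interferon response genes 12 of 37 passed as higher and 8 as lower, and the median of 0.12 turned to -0.081 with array medians. Igtp and Gbp3, GTPases induced by interferon, changed by -0.89 ± 0.069, not called with the spike-ins, and 0.64 ± 0.065. The antiviral genes Rsad2 and Ifit1 fell by 1.40 ± 0.065 and 0.99 ± 0.090, while Dhx58, a regulator of RNA sensing, and the factor gene Irf7 rose by 0.95 ± 0.12 and 0.61 ± 0.074. Nos2, the inducible nitric oxide synthase, was at 1.30 and 1.19 at 3 h and 3.59 and 3.52 at 6 h and rose by 2.31 ± 0.098 (adjusted p = 8.05e-05), 4.96-fold. Prostanoid and nitric oxide genes passed as higher in 7 of 17 and as lower in 3, with a median of 0.061 that turned to -0.14 with array medians. Ptgs2, which encodes the cyclooxygenase COX-2, fell by 1.04 ± 0.091, and the prostaglandin F receptor gene Ptgfr rose by 1.30 ± 0.11. Plaur, the receptor of urokinase, was at 2.91 and 3.01 at 3 h and 0.87 and 1.00 at 6 h and fell by 2.03 ± 0.088, while the matrix proteases Adamts5, Adamts15 and Adamts4 rose by 1.25 ± 0.098, 1.15 ± 0.090 and 0.87 ± 0.060. Plau, the gene of urokinase, fell by 0.55 ± 0.089, a call lost without scaling and with the spike-ins. Of 28 protease genes 8 passed as higher and 5 as lower, with a median of 0.014 (-0.19 with array medians). The TGF-beta, BMP and YAP list held 8 higher (26.7%) and 9 lower (30.0%) of 30, near the shares of all named genes (20.1% and 29.3%). Its median of 0.12 turned to -0.085 with array medians. Smad7, Pmepa1 and Tgif1, brakes on TGF-beta signalling, fell by 1.34 ± 0.070, 1.33 ± 0.062 and 1.25 ± 0.064, and Id4, an inhibitor of helix-loop-helix factors, rose by 1.49 ± 0.11, as did the YAP pathway gene Amotl2 by 0.76 ± 0.057. Of 31 collagen and matrix genes 5 passed as lower (16.1%) and 3 as higher (9.68%). Of 21 genes of the glucocorticoid response 8 passed as lower (38.1%) and 3 as higher (14.3%), within 10 percentage points of all named genes. The medians of these lists were -0.062 and -0.21, and 0.25 and 0.10 with the spike-ins. That of the collagen list was also above 0 without scaling (0.0011). Thbs1, thrombospondin, fell by 1.11 ± 0.081 with a spot in a bright patch on 1 array, Col8a1 fell by 0.84 ± 0.13, not with the spike-ins, and the proteoglycan gene Vcan rose by 0.59 ± 0.085. Klf9 of the glucocorticoid response fell by 1.52 ± 0.067, and Zbtb16 and Tsc22d3, which encodes GILZ, rose by 1.88 ± 0.11 and 0.51 ± 0.064.

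Regulators of fat cell formation included some of the larger changes, in both directions. Of 28 tested, 13 passed as higher and 9 as lower, 6 and 4 of them by at least 2-fold, and the median of 0.16 turned to -0.043 with array medians. Ebf2, a factor of brown and beige fat precursors, was at -3.95 and -3.90 at 3 h and -1.64 and -1.60 at 6 h and rose by 2.30 ± 0.083 (adjusted p = 7.21e-05). Gata3, a factor that holds preadipocytes back, was at -0.95 and -0.87 at 3 h and 0.69 and 0.60 at 6 h and rose by 1.56 ± 0.069. Klf5, Cebpb and Foxc2, of which the first and the second act early in differentiation, fell by 1.22 ± 0.13, 1.39 ± 0.15 and 1.30 ± 0.085. Cebpa, the partner of Pparg in mature fat cells, was at -1.69 and -1.77 at 3 h and -2.45 and -2.36 at 6 h and fell by 0.68 ± 0.086, a call lost with the spike-ins (adjusted p = 0.231). Cebpd changed by -0.27 ± 0.084 (adjusted p = 0.0449), by 0.044 with the spike-ins, and lost its call in 15 others of the 24 alternatives. Pparg did not pass (change -0.091 ± 0.058, adjusted p = 0.270), nor did Fabp4 (-0.19 ± 0.063, adjusted p = 0.0594), the lipase gene Lpl (0.050 ± 0.058, adjusted p = 0.542) and Angptl4, a PPAR target that inhibits Lpl (0.0026 ± 0.067, adjusted p = 0.981).

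Fasn, fatty acid synthase, was at -0.58 and -0.62 at 3 h and -2.11 and -2.20 at 6 h and fell by 1.55 ± 0.089 (adjusted p = 0.000138), while Acacb, Srebf1 and Dgat2, which serve malonyl-CoA synthesis at the mitochondrion, the control of lipogenesis and the last step of triglyceride synthesis, rose by 0.97 ± 0.064, 0.92 ± 0.076 and 0.89 ± 0.074. The counts were 8 higher and 7 lower of 24 for fatty acid and triglyceride synthesis, with a median of -0.041 (-0.24 to 0.27 over the scalings). Lpin2, a phosphatase on the way to triglycerides, fell by 1.08 ± 0.100. For lipolysis and fatty acid oxidation they were 11 and 6 of 29, with a median of 0.049 that turned to -0.15 with array medians. Plin4, a coat protein of lipid droplets, was at 1.13 and 1.21 at 3 h and 2.41 and 2.27 at 6 h and rose by 1.17 ± 0.081, and Mgll and Acot1, a monoglyceride lipase and an acyl-CoA thioesterase, rose by 0.85 ± 0.068 and 0.66 ± 0.059. Pnpla2, the main triglyceride lipase of fat cells, fell by 0.77 ± 0.075 (lost with the spike-ins, adjusted p = 0.140), and Cpt1b, which admits fatty acids to the mitochondrion, by 0.71 ± 0.067, also not with the spike-ins. Genes of cholesterol synthesis and uptake gave 7 higher (22.6%) and 8 lower (25.8%) of 31, near the shares of all named genes (20.1% and 29.3%). Their median was -0.033 (-0.23 to 0.28 over the scalings). Mvk, mevalonate kinase, rose by 0.52 ± 0.071. The oxysterol receptor gene Nr1h3, known as LXR alpha, was at -0.42 and -0.50 at 3 h and 0.69 and 0.69 at 6 h and rose by 1.15 ± 0.064, and its efflux target Abca1 rose by 0.60 ± 0.10, not with array medians, while the synthesis genes Cyp51 and Msmo1 fell by 0.70 ± 0.12 and 0.47 ± 0.075, neither without scaling nor with the spike-ins. The sterol sensor gene Insig1 did not pass (adjusted p = 0.240). Insulin and IGF signalling genes passed as higher in 14 of 33 and as lower in 4, and their median of 0.12 turned to -0.079 with array medians. Pdk1, a symbol that in the mouse names a pyruvate dehydrogenase kinase, rose by 0.97 ± 0.086, while the kinase genes Akt2 and Pik3ca fell by 0.45 ± 0.078 and 0.52 ± 0.088, neither without scaling nor with the spike-ins. The 15 tested adipocyte markers had a summed level of 298 and 297 at 3 h and 262 and 253 at 6 h, on a linear scale where the array's 75th percentile is 1. Of them 3 passed as higher and 5 as lower.

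Notch and Wnt genes had the highest median of the groups, 0.19, which turned to -0.0072 with array medians. Of 27 tested 12 passed as higher and 4 as lower, 13 and 2 with the spike-ins, and 13 lay in the highest 25% of all changes. The Notch ligand gene Jag1 was at -0.72 and -0.75 at 3 h and 0.57 and 0.65 at 6 h and rose by 1.35 ± 0.080 (adjusted p = 0.000154), and Notch4 rose by 1.32 ± 0.088. Hes1, the Notch target, was at -1.59 and -1.80 at 3 h and -3.24 and -3.60 at 6 h and fell by 1.73 ± 0.14, and Znrf3, a ligase that removes Wnt receptors, fell by 1.38 ± 0.12. Its relative Rnf43 rose by 1.21 ± 0.12, with a spot in a bright patch on 1 array and 1 of the 2 arrays at 3 h above background, and the call was lost with another background correction (adjusted p = 0.375). Of the regulators of G protein signalling and its receptors 6 of 26 passed as higher and 5 as lower, with a median of -0.055 (-0.26 to 0.26 over the scalings). Rgs4 was at -3.74 and -3.62 at 3 h and -1.79 and -1.95 at 6 h and rose by 1.80 ± 0.084, Rgs3 and Rgs2 rose by 0.97 ± 0.060 and 0.93 ± 0.093, and Rgs16 fell by 0.90 ± 0.099 and the cAMP-responsive factor gene Creb1 by 0.82 ± 0.13 (neither with the spike-ins). Lysosome and autophagy genes passed as lower in 14 of 36 (38.9%) and as higher in 4 (11.1%). Both shares lay within 10 percentage points of those of all named genes (29.3% and 20.1%). With the spike-ins 0 passed as lower and 4 as higher, and the median of -0.13 turned to 0.19. Sqstm1, the autophagy receptor p62, fell by 0.66 ± 0.080 (lost with the spike-ins) and Mcoln1, a lysosomal calcium channel gene, rose by 0.76 ± 0.068.

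Of 13 macrophage and leukocyte markers, 8 were tested, and Ptprc, Adgre1 and Tyrobp, which define leukocytes and macrophages, were well above background on none of the 4 arrays. The summed level of the 8 was 46.3 and 43.9 at 3 h and 45.1 and 39.4 at 6 h. Cd14 and Aif1 rose by 0.44 ± 0.081 and 0.68 ± 0.074, the former not with array medians or without scaling. The neutrophil gene Mpo passed too, with signals of -6.40 and -6.81 at 3 h and -3.16 and -2.16 at 6 h, but was well above background on neither 3 h array, and its spots on 2 arrays lay in bright patches. Of 12 endothelial and muscle markers 5 were tested and 0 passed as higher and 0 as lower (limma; 0 at an unadjusted p under 0.05). Of 15 tested preadipocyte and fibroblast markers 1 passed as higher and 4 as lower, with a summed level of 2720.4 and 2581 at 3 h and 2767 and 2425 at 6 h. Their member Cd34 had 1 probe that passed as higher and 1 as lower. Of the usual reference genes, Actb was at 8.75 and 8.60 at 3 h and 8.80 and 8.53 at 6 h and Gapdh at 8.84 and 8.82 at 3 h and 9.02 and 8.75 at 6 h, and neither passed (adjusted p = 0.943 and 0.718).

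**Figure D4:**
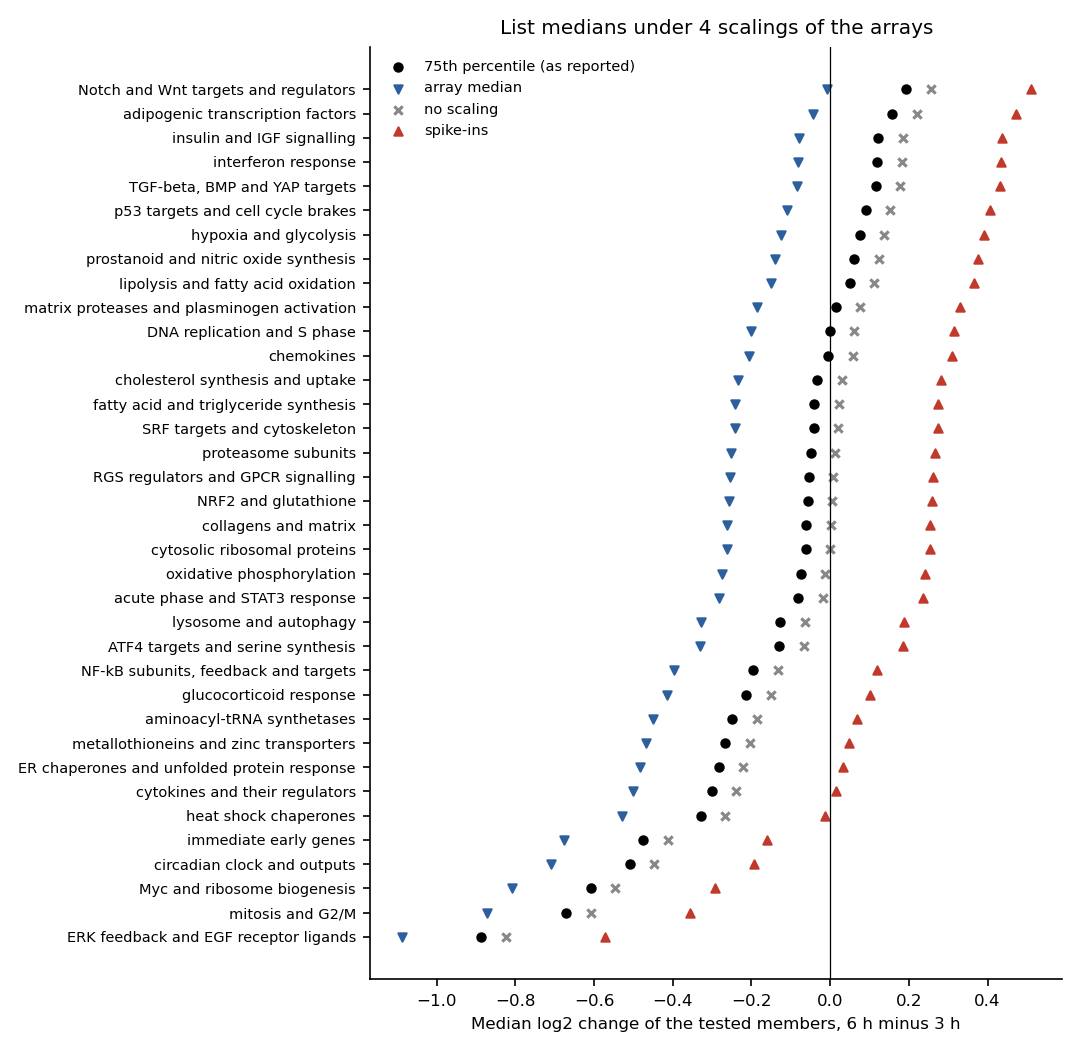
Median log2 change from 3 h to 6 h (horizontal axis) of the tested members of 36 gene lists under 4 scalings of the arrays: 75th percentile (black), array median (blue), none (grey) and spike-ins (red). The order of the lists is the same under each. The medians of 6 lists stay below 0 under all: ERK feedback, mitosis, Myc and ribosome biogenesis, clock, immediate early genes and heat shock chaperones. That of the chaperones is -0.013 with the spike-ins.

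The arrays with USP2 knockdown supernatant gave the same comparison on 4 other samples, though in the same slide rows. There, 10249 of the 24710 passed (41.5%), 4526 higher (18.3%) and 5723 lower (23.2%). Of these, 8236 also passed in the same direction with control supernatant, which is 80.4% of the knockdown calls and 79.7% of the control calls, and 27 passed in opposite directions. Both comparisons share 1 estimate of the spread per gene, so a gene of small spread tends to pass in both, and this overlap is not that of independent tests. Across genes, which are not independent replicates, the changes correlated at 0.82. Kif26b changed by 3.60 with knockdown supernatant, Slc30a1 by -3.50, Ereg by -2.56, Chac1 by 2.49 and Tsr1 by -1.99, each in the same direction as above. For mitosis genes 31 of 35 passed as lower there, for the Myc network and ribosome assembly 31 of 47 and for the clock 15 of 22. The difference between the changes with the 2 supernatants passed in 0 of 24710 (0.0%, limma), with 2226 at an unadjusted p under 0.05. The smallest adjusted p was 0.0898, which Saa3 had: it rose by 0.66 ± 0.061 with control and by 1.82 with knockdown supernatant, a difference of 1.16 ± 0.087. Egr2 fell by 1.94 ± 0.093 against a change of -0.96, a difference of 0.98 ± 0.13 (adjusted p = 0.234), and Il4ra fell by 2.21 ± 0.11 against -1.35, a difference of 0.86 ± 0.16 (adjusted p = 0.347). The median SE of this difference was 0.144 on the log2 scale, so a p that missed the threshold does not show that the supernatants acted alike. Without 1 of the 8 arrays the number of differences that passed ranged from 0 to 301, the most without the second control array at 6 h.

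**Figure D5:**
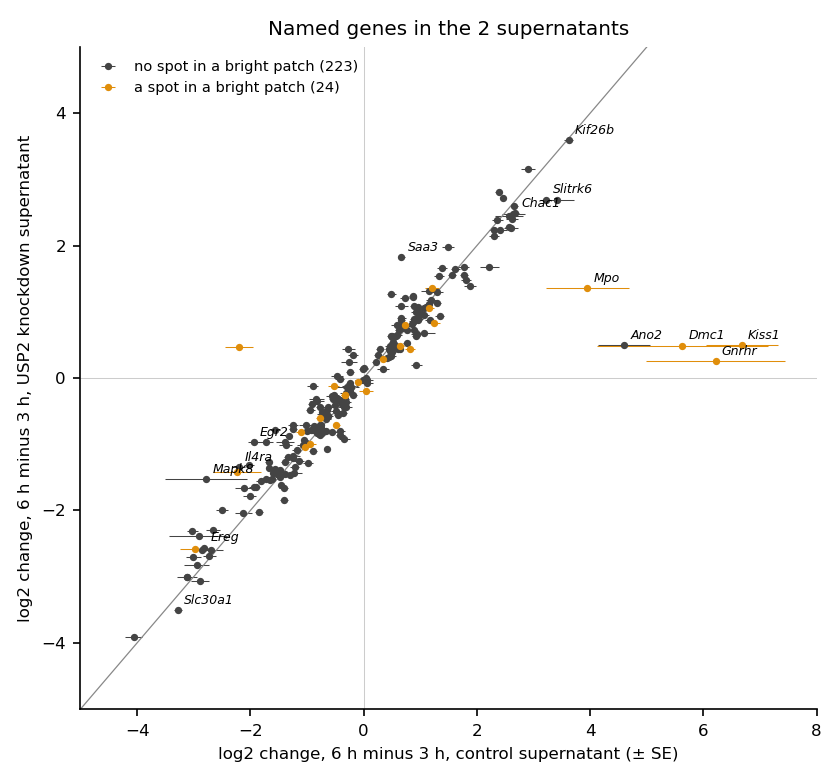
Log2 change from 3 h to 6 h of 247 named genes with control supernatant (horizontal axis, bars give the SE) against that with USP2 knockdown supernatant (vertical axis), with the line of equal change. Most genes lie near the line, while Kiss1, Gnrhr, Dmc1, Mpo and Ano2 lie far to its right, the first 4 with a spot in a bright patch of a control array (orange).

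Some calls rest on signals near background or in the bright patches. Of the 10335 calls, 742 were not well above background on either array of 1 time, 195 of them higher and 547 lower at 6 h. The dynein gene Dnaic2 was at least 7.29-fold lower at 6 h, Grb7 at least 3.54-fold, Parvg at least 3.26-fold and the sterol transporter gene Npc1l1 at least 3.20-fold. Mymx, which encodes the fusion peptide myomixer, was at least 5.91-fold higher, Fbxo15 at least 5.87-fold, Ano2 at least 5.21-fold, Tafa5 at least 4.83-fold and Vamp1 at least 4.36-fold. These bounds set the brighter time's mean against the higher of the dim signal and the lowest signal well above background on each array. For Ano2 the 2 control arrays at 6 h lay apart, at -3.36 and -1.95. With knockdown supernatant Ano2 changed by 0.50 (limma adjusted p = 0.423). Of the calls, 881 had a spot in a bright patch on 1 of the 4 arrays or more, and 151 of them did not pass with such spots masked. Among the 881 were calls named above, of Adamts5, Adamts15, Ctf1, Map3k8, Ptgs2, Slc1a5 and Tnfaip3, which passed with the spots masked. Of genes named above, Adamts5, Creb1, Cxcl12, Mbp and Ppfia4 had 1 of 2 tested probes passing, Lifr 1 of 3 and Vcan 2 of 3. Of 215 calls at least 4-fold higher, 62 had such a spot. Kiss1, the gene of kisspeptin, was at -6.00 and -7.20 at 3 h and 0.94 and -0.78 at 6 h, and Gnrhr and Dmc1 at -6.87 and -7.20 at 3 h and 1.27 and -2.90 at 6 h and -6.86 and -7.19 at 3 h and 1.16 and -3.97 at 6 h. With knockdown supernatant these 3 changed by 0.49, 0.26 and 0.49 (adjusted p = 0.571, 0.882 and 0.817). The 3 largest falls with a spot in a patch were those of Cdc42bpg, at least 2.15-fold lower, Slc9b1, at least 1.12-fold lower, and Kcne1, measured on 1 array at 6 h because its spot on the other was an outlier. The change of Kcne1 was -2.19 ± 0.25, and 1.23 with the authors' value table, which keeps that spot.

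Of 5662 tested probes designed to genomic intervals and not named here, 744 passed as higher and 1094 as lower (32.5%). Among the calls well above background on all 4 arrays and outside the patches, the largest fall was in the interval chr9:65376063-65390480 of mouse build mm9, with a change of -3.22 ± 0.092 (adjusted p = 5.76e-05). In the interval chr8:124355710-124401160 2 probes fell, by 2.51 ± 0.11 and 2.36 ± 0.096. The largest rise was in chr2:153163620-153170845, by 3.11 ± 0.72, where the 2 arrays at 6 h lay far apart at -1.77 and 0.62. The interval chrX:50400250-50410825 rose by 2.46 ± 0.067, from 0.39 and 0.36 at 3 h to 2.82 and 2.85 at 6 h. No annotation of mm9 was used here, so these intervals carry no gene name.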

How the data were processed

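Arrays were Agilent 1-colour Cy3 arrays scanned on 1 slide, labelled from 0.1 ug of RNA per the labels' protocols. The deposited intensity of each spot was background-subtracted and spatially detrended by Agilent Feature Extraction 10.7.3.1, per the file headers and the submitters' processing notes. The authors' deposited value table holds log2 intensities scaled to each array's 75th percentile, as its comparison with the scanner values showed (r above 0.999 on each array), and served as an alternative. The array design is on mouse build mm9, per the file headers.

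From the intensities, log2 values minus the array's 75th percentile were computed, outlier spots were left out and spots of a probe averaged. Of 55681 probes, 27235 were named through a RefSeq transcript (table of GRCm38.p6, names only), 20 by symbol, and 28426 stay unnamed. A probe was tested if the 2 arrays of either control supernatant group both had it well above background. A gene is its tested probe of highest mean. limma 3.58.1 (R 4.3.3) was fitted to all 8 arrays as 4 group means (4 residual degrees of freedom), with Benjamini-Hochberg adjustment over all 24710, and passed means adjusted p under 0.05. Errors are SE from this fit. Data of this size were also simulated, with normal noise and with far fewer changed genes than passed here. There, 16%, 80%, 88% and 98% of genes changed by 0.5, 1, 1.5 and 2 (log2) were called, with 8 false calls. These values are therefore not the power or error rate of the calls above. Bright patches were found as a rolling median over 7 by 7 spots that deviated by more than 0.5 (log2) from the other arrays.

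Named are the 12 largest changes each way among calls on all 4 arrays outside patches, the 5 largest bounds and the 3 largest calls in patches each way, up to 3 called members per list and direction by p, a fixed set of genes, and calls of the difference between supernatants, of which there were 0 (limma; 2226 at an unadjusted p under 0.05). Cd34 and Arrdc4 are described with both probes. Some genes that this rule names are not reported here. The arrays were chosen by label, while the comparison, the gene lists and their members were chosen with earlier results of these data known. Alternatives were other scalings, backgrounds, filters and fits, and each array left out.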

Additional observations from a re-analysis of the deposited data

How the results depend on the processing

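With control supernatant, setting array medians equal gave 2663 higher and 9870 lower calls, 2154 of the lower at least 2-fold, and 8805 of the 10335 calls remained in the same direction. No scaling gave 2983 lower calls, 1852 lower calls for knockdown supernatant and 5 differences between the supernatants, and 5717 calls remained. Spike-in scaling, chosen after seeing the data, gave 1471 lower calls, 2339 at least 2-fold higher and 659 at least 2-fold lower, with 1907 lower calls for knockdown supernatant and 27 differences, and 5359 calls remained. Normexp background correction gave 436 at least 2-fold higher, 535 at least 2-fold lower and 3 differences. Testing all probes gave 4084 lower calls, and 3488 for knockdown supernatant. A fit to the 4 control arrays alone gave 3208 higher and 4615 lower calls, and 7583 calls remained. Without 1 array at a time, higher calls ranged from 3121 to 4449, lower calls from 4252 to 6404, at least 2-fold higher from 1124 to 1398 and at least 2-fold lower from 1137 to 1475. For knockdown supernatant higher calls ranged from 3295 to 4978 and lower calls from 3592 to 6822 (3592 without the first and 3723 without the second knockdown array at 3 h). Differences ranged from 0 to 301, with 252 without the first and 301 without the second control array at 6 h, 36 without the second knockdown array at 6 h and 2 without the second control array at 3 h. Without 1 control array at a time, lower calls numbered 26 to 30 for mitosis genes, 30 to 31 for ribosome biogenesis, 14 to 15 for the clock, 12 to 13 for ERK feedback and 17 to 19 for immediate early genes. The causes were not tested. With the replicate number as a block (replicate block) 4082 were higher and 6040 lower, 4420 and 5729 for knockdown supernatant, and 0 differed (limma). Between groups, the deviations of the first replicates from their group means correlated at -0.064 to 0.117. These deviations include array noise, so they cannot settle whether same-numbered samples share more than a number. Of 232 named calls 86 kept their direction but not their call in at least 1 of 24 alternatives. Directions turned for Kcne1 (1.23 with the authors' value table) and, with the spike-ins, for Cebpd (0.044), Fos (0.0071), Ndufa4 (0.085), Pla2g4a (0.077), Postn (0.068), S1pr3 (0.068) and Uqcrc2 (0.070). Probes near background, 742 of the calls at 1 of the times, limit the size of those changes.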
